A study of Rattus norvegicus with 6 samples.

Results

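The transcripts described here encode apoptotic caspases and proteins of the Bcl2 family in rat tail intervertebral discs. They were chosen by name as Casp8, Casp9, Bcl2, Bcl2l1, Bcl2l11, Mcl1, Bax and Bcl2a1, and all 8 were found among the 30562 genes of the count table. Both caspases among them are initiators. All 8 members passed the filter on low counts, as did 15537 genes in all.

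Apoptosis dismantles a cell through caspases, proteases that are made as inactive precursors. In the mitochondrial route, Bax and its relative Bak1 open the outer mitochondrial membrane, anti-apoptotic proteins such as Bcl2 restrain them, and BH3-only proteins such as Bcl2l11 (also called Bim) relieve that restraint, after which released cytochrome c activates Casp9. In the death receptor route, ligands of the tumor necrosis factor family activate Casp8, and loss of disc cells by apoptosis is a known feature of disc degeneration.

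Bulk RNA was measured in 6 libraries, 3 labelled Control and 3 labelled AF-PTK@LEV@SPP1, from wild-type rats. By the study's methods the rats were male Sprague-Dawley rats, 12 weeks old when a tail disc was punctured by a needle, in both groups. The agent AF-PTK@LEV@SPP1 combines liposomes with bacterial outer membrane vesicles, carries an siRNA against Spp1, and displays an annulus fibrosus binding peptide through a linker that reactive oxygen species cut. By the methods it was injected into the disc from 24 h after surgery, as 10 µL with 1 mg/kg of siRNA, over 8 weeks, and controls received PBS. The sample records instead describe untreated controls, 14 days of treatment and macrophages sorted from digested discs of mice, whereas the table carries rat gene identifiers and Col1a1, a collagen of fibrous tissue, stood at 31920 to 64079 normalized CPM. CPM here are counts scaled to a common library size, normalized between libraries by edgeR's trimmed mean of M-values.

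Total counts were 17942989, 16565291 and 17489851 for Control 1, 2 and 3, compared with 17074981, 15560728 and 17855184 for AF-PTK@LEV@SPP1 1, 2 and 3. At this depth 3 counts, taken as the smallest measurable level, correspond to 0.154 to 0.193 CPM, which covers counting error alone. Control 2 and Control 3 differed by little more than counting noise: over 14393 genes their variance was 1.33 times that of counting, against 51.3 to 107 times for the other pairs within a group. They were counted as 1 sample, so that the tests rest on 2 distinct control samples and 3 samples labelled AF-PTK@LEV@SPP1. Fits that keep all 6 libraries as separate samples are given beside them. Those fits count the near-identical pair as 2 independent samples, so their p-values are too small if the pair is 1 sample.

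Spp1, the target of the siRNA, stood at 8123, 4411 and 4417 CPM in Control 1, 2 and 3 and at 8054, 6903 and 8461 CPM in libraries with the AF-PTK@LEV@SPP1 label. Control 1 lay within the range of the other group, and the groups overlapped. The log2 fold change, AF-PTK@LEV@SPP1 over Control, was 0.31 (SE 0.37, 95% interval -0.62 to 1.24, edgeR quasi-likelihood adjusted p = 0.628), and it was -0.07 without the Control 2 and 3 pair, 0.81 without Control 1 and 0.47 with the 6 libraries. No lower level of the siRNA target was detected under the treatment label, though the interval includes decreases, and every direction that follows is relative to those labels.

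Of the 8 members, 1 was lower at an adjusted p under 0.05 and 0 were higher, where the same edgeR test called 2.57% of all genes tested lower and 1.13% higher. Over all genes tested, 3941 had an unadjusted p under 0.05. With the 6 libraries kept separate, 4 members were lower and 1 was higher, against 9.93% and 8.2% of all genes, and DESeq2 on the distinct samples gave the same numbers, 4 and 1, against 9.27% and 7.29%. Values of 4 members lay wholly below the control samples and those of 1 wholly above, as was so for 21.9% and 23.9% of all genes tested. The median log2 fold change was -0.26 over the members and 0.05 over all genes tested. In bulk tissue, fewer cells of a type and less RNA per cell cannot be told apart.

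**Figure D1:**
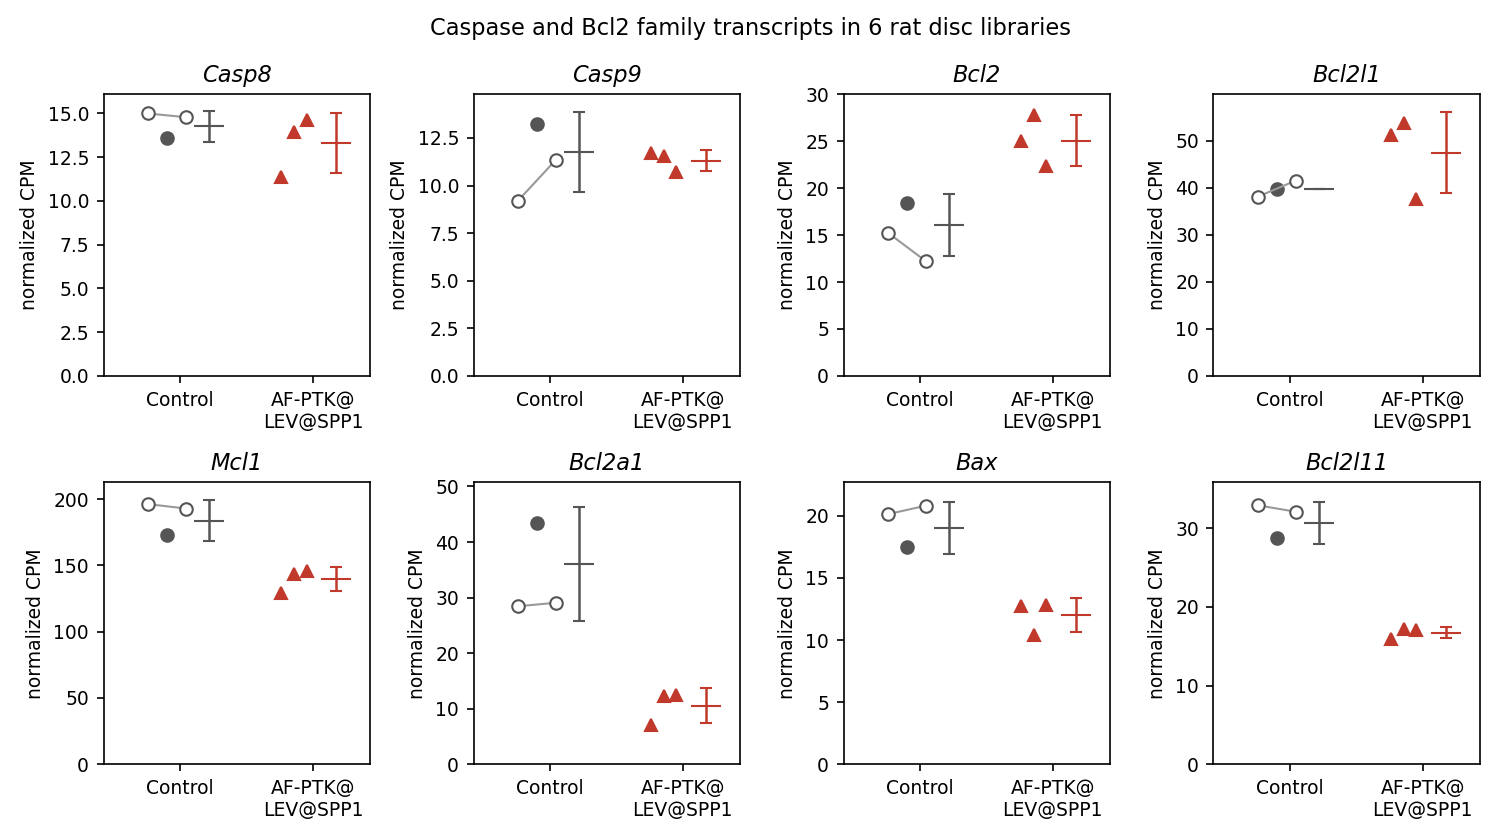
Normalized CPM of the 8 members (vertical axes from 0) in each library, with grey circles for Control, open and joined for the near-identical Control 2 and 3, and red triangles for AF-PTK@LEV@SPP1. Bars give the mean and SD over n = 2 distinct control samples and n = 3 samples labelled AF-PTK@LEV@SPP1. Bcl2l11, Mcl1, Bax and Bcl2a1 lie below the controls without overlap, and Bcl2 lies above them.

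Bcl2l11, the BH3-only protein Bim, binds the anti-apoptotic members and can also activate Bax directly. Its transcript stood at 28.8, 32.9 and 32.1 CPM in Control 1, 2 and 3 and at 15.9, 17.3 and 17.0 CPM in AF-PTK@LEV@SPP1 1, 2 and 3, from 271 to 561 counts per library. All 3 libraries labelled AF-PTK@LEV@SPP1 were below every control, and the spread within each group was small beside the gap. The means were 30.7 ± 2.63 CPM (SD, n = 2) and 16.7 ± 0.709 CPM (SD, n = 3). Bcl2l11 fell by 0.88 on the log2 scale (SE 0.12, 95% interval -1.18 to -0.58), a level 1.84-fold higher in controls, with an edgeR adjusted p of 0.0326. In the edgeR fit with the settings used throughout it was the only member called, while other settings also called Bcl2a1, and the 6 libraries gave -0.90 with an edgeR adjusted p of 0.00446.

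That call was lost when AF-PTK@LEV@SPP1 1, 2 or 3 was left out, with edgeR adjusted p-values of 0.0687, 0.0967 and 0.157. Without AF-PTK@LEV@SPP1 2 or without AF-PTK@LEV@SPP1 3 edgeR called 0 genes in all, so those fits do not decide the call. The fit without AF-PTK@LEV@SPP1 1 still called 113 genes in all, and Bcl2l11 was not among them. Without Control 1, or without the Control 2 and 3 pair, 1 distinct control remains, and the log2 fold changes were -0.97 and -0.79. Bcl2l11 was called in 11 of 16 alternatives and the call was lost in 5, while the log2 fold change stayed between -0.97 and -0.79 in all of them. A two-sided exact permutation test of Bcl2l11 on the 5 distinct samples gave p = 0.1, the smallest this design allows. Any gene whose groups do not overlap reaches that value, as Bcl2, Mcl1, Bax and Bcl2a1 did in the exact permutation test. The groups did not overlap for 45.8% of all genes tested, so the permutation test adds no support to the call. The gene spans bases 115366646 to 115404068 of the plus strand of chromosome 3 in the table's coordinates, and no other gene of the table overlaps it.

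Bcl2a1 encodes an anti-apoptotic protein known from leukocytes as a target of NF-κB. Its transcript stood at 43.3, 28.4 and 29.1 CPM in the controls and at 7.00, 12.2 and 12.4 CPM in libraries with the AF-PTK@LEV@SPP1 label. The groups did not overlap, with Control 1 the highest and AF-PTK@LEV@SPP1 1 the lowest library. Bcl2a1 had a log2 fold change of -1.78 (SE 0.31, 95% interval -2.57 to -0.99) with an edgeR adjusted p of 0.0514, which missed the threshold. It was the furthest from 0 among the members. The threshold was passed in 5 of 16 alternatives, including the 6 libraries (adjusted p = 0.0142), and the edgeR, limma and DESeq2 adjusted p-values ran from 2.9e-05 to 0.171.

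Mcl1 encodes a short-lived anti-apoptotic protein. It stood at 173, 196 and 193 CPM in the controls and at 129, 144 and 146 CPM in libraries with the AF-PTK@LEV@SPP1 label, without overlap. Mcl1 had a log2 fold change of -0.40 (SE 0.13, 95% interval -0.72 to -0.08), and the edgeR adjusted p of 0.138 did not pass, whereas that of the 6 libraries was 0.0348.

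Bcl2, the founding anti-apoptotic member, was the single member whose values were all above the controls. It stood at 18.4, 15.2 and 12.2 CPM in Control 1, 2 and 3 and at 25.05, 27.8 and 22.3 CPM in AF-PTK@LEV@SPP1 1, 2 and 3. The lowest of the latter exceeded the highest control. For Bcl2 the log2 fold change was 0.64 (SE 0.18, 95% interval 0.17 to 1.101) with an edgeR adjusted p of 0.118, and the 6 libraries gave 0.71 with an adjusted p of 0.0394. DESeq2 on the 5 distinct samples gave 0.62 with an adjusted p of 0.0496. The call was made in these 2 of 16 alternatives.

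Bcl2l1, whose main product Bcl-xL is anti-apoptotic, had 39.9, 38.1 and 41.6 CPM in the controls and 51.2, 53.8 and 37.6 CPM in libraries with the AF-PTK@LEV@SPP1 label. The third of the latter lay below every control and the other two above, so the groups overlapped. The log2 fold change was 0.24 (SE 0.18, 95% interval -0.21 to 0.70, edgeR adjusted p = 0.434). A pseudogene on the opposite strand overlaps 895 bases of the gene, and whether strand was used in counting is not given in the sources used here.

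Bax forms the pore in the outer mitochondrial membrane. It stood at 17.5, 20.1 and 20.8 CPM in the controls and at 12.8, 10.4 and 12.8 CPM in libraries with the AF-PTK@LEV@SPP1 label. All of the latter were below the lowest control. For Bax the log2 fold change was -0.67 (SE 0.16, 95% interval -1.09 to -0.26) with an edgeR adjusted p of 0.0902, against -0.70 and 0.0203 with the 6 libraries. The annotated span of Bax shares 918 bases on the same strand with Ftl1, the ferritin light chain, so that reads there could be credited to either gene. Ftl1 had 727, 780 and 835 CPM in the controls and 431, 529 and 539 CPM in the other group, a log2 fold change of -0.63 (edgeR adjusted p = 0.110). Its part in the Bax values was not tested.

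The balance of Bax against Bcl2 was read as the log2 ratio of their CPM within each library, which does not depend on scaling between libraries. Because transcript lengths were not used, only differences of the ratio between libraries are described. It was -0.07, 0.40 and 0.76 in Control 1, 2 and 3 and -0.97, -1.40 and -0.80 in AF-PTK@LEV@SPP1 1, 2 and 3. Every library labelled AF-PTK@LEV@SPP1 was below every control. The difference of the means was -1.31 on the log2 scale, a ratio 2.48-fold higher in controls, and a two-sided exact permutation test on the 5 samples gave p = 0.1, again the smallest possible. Because Bax lay wholly below and Bcl2 wholly above the controls, their ratio had to separate the groups, so this test adds no support.

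The initiator caspases showed no separation. Casp8, which starts the death receptor route, had 13.6, 14.99 and 14.8 CPM in the controls and 11.3, 13.9 and 14.6 CPM in libraries with the AF-PTK@LEV@SPP1 label. These ranges overlapped, and the log2 fold change was -0.11 (95% interval -0.53 to 0.31, edgeR adjusted p = 0.711). Casp9, activated on the apoptosome, had 13.3, 9.20 and 11.4 CPM in the controls and 11.7, 11.5 and 10.7 CPM in the other group. The latter values lay inside the control range, with a log2 fold change of -0.06 (95% interval -0.49 to 0.37, edgeR adjusted p = 0.838) whose sign turned in 4 of 16 alternatives. The intervals leave room for changes of either sign in both genes.

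The wider apoptosis list held 51 genes by role, of which 50 were in the table and 47 were tested. With edgeR, 4 were lower and 0 higher, against 2.57% and 1.13% of all genes tested. Both the 6 libraries and DESeq2 gave 15 lower and 2 higher. The shares over all genes were 9.93% and 8.2% with the 6 libraries and 9.27% and 7.29% with DESeq2. Leaving out the 8 members, the figures were 3 lower and 0 higher of 39 tested, and 11 lower and 1 higher with the 6 libraries. The log2 fold change was below 0 for 38 of the 47 genes and its median was -0.25, whereas 45.8% of all genes tested were below 0.

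**Figure D2:**
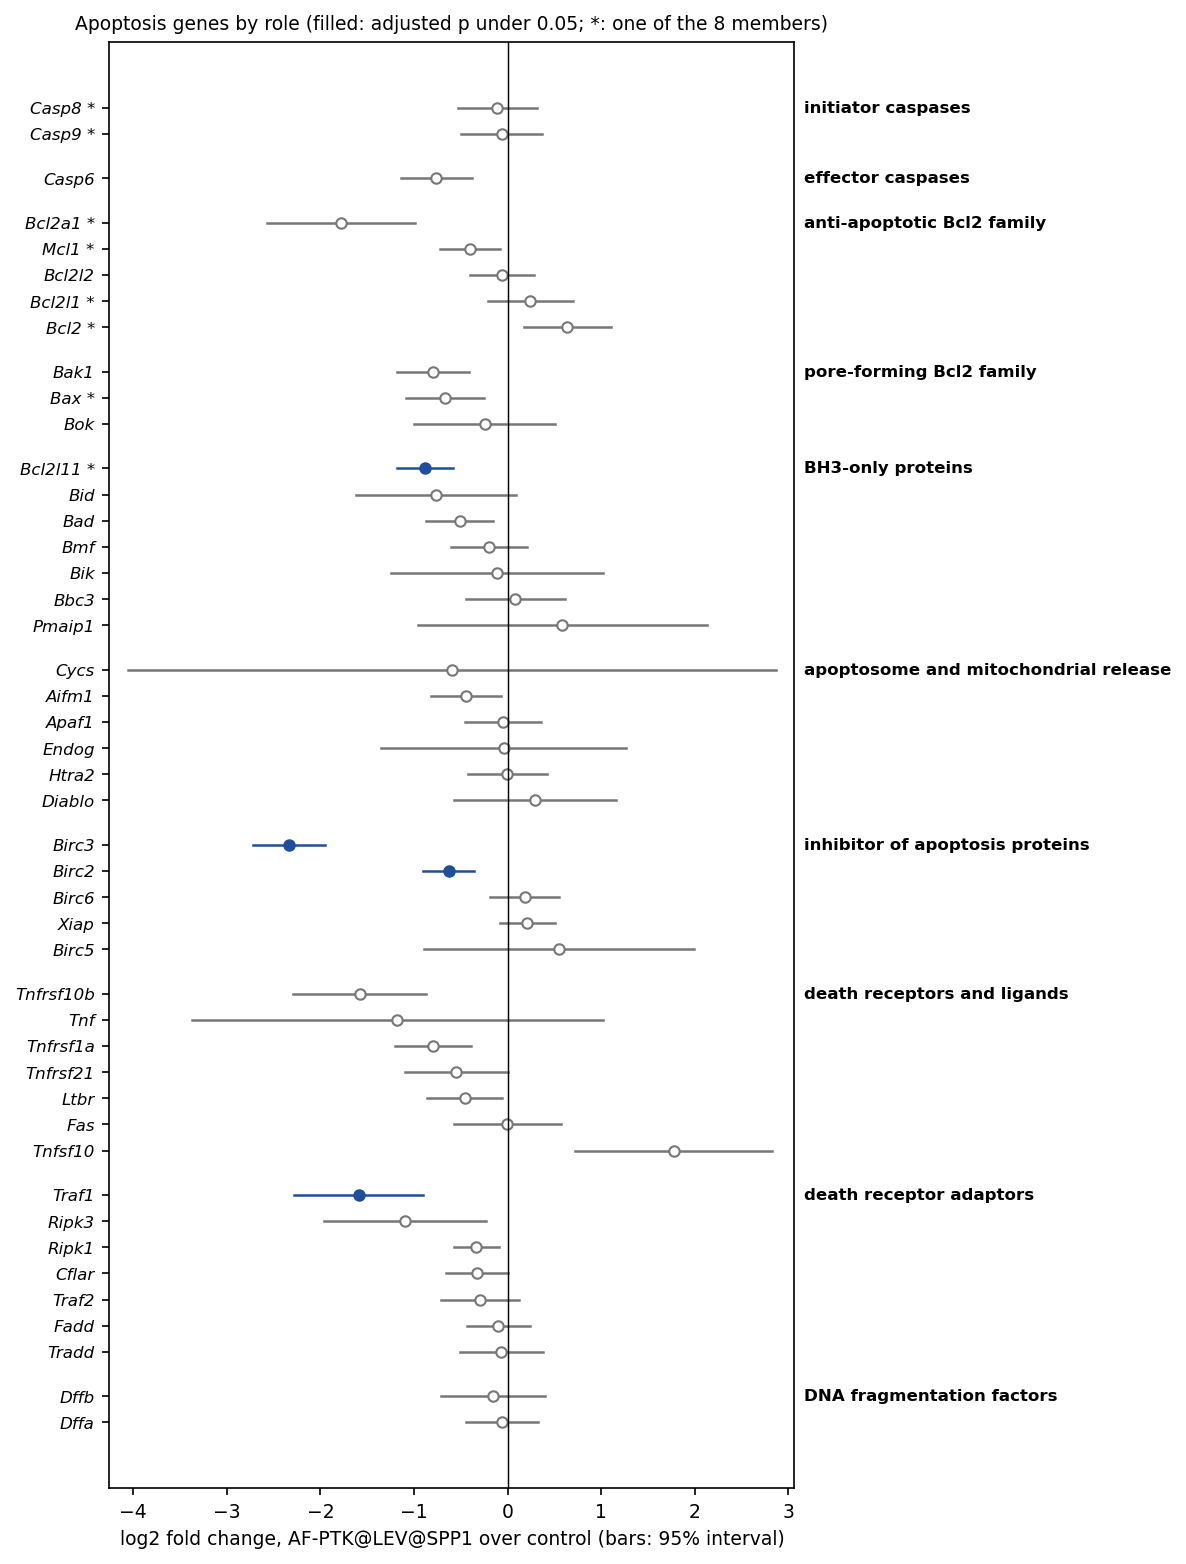
Log2 fold change of AF-PTK@LEV@SPP1 over Control (horizontal axis) for 45 of the 47 tested apoptosis genes, grouped by role, with 95% intervals as bars and asterisks on the 8 members. Filled points mark the 4 genes with an edgeR adjusted p under 0.05, which are Bcl2l11, Birc3, Birc2 and Traf1.

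Of 5 inhibitor of apoptosis genes, 2 were called. Birc3 encodes cIAP2, a ubiquitin ligase of tumor necrosis factor signaling, and stood at 35.3, 29.6 and 29.6 CPM in the controls and at 5.997, 6.27 and 7.12 CPM in libraries with the AF-PTK@LEV@SPP1 label. The groups were far apart and tight within. Birc3 fell by 2.33 on the log2 scale (SE 0.15, edgeR adjusted p = 0.0119). Its edgeR adjusted p was 0.0679 without AF-PTK@LEV@SPP1 2 and 0.130 without AF-PTK@LEV@SPP1 3, in fits that called 0 genes in all. The log2 fold changes of Birc3 in those fits were -2.31 and -2.40. Without the control pair, which leaves 1 distinct control, the log2 fold change of Birc3 was -2.46. Birc3 was called in 13 of 16 alternatives and the call was lost in 3. Birc2, which encodes the related cIAP1, had 74.8, 66.7 and 65.5 CPM in the controls and 48.2, 44.3 and 45.2 CPM in the other group, and fell by 0.63 on the log2 scale (edgeR adjusted p = 0.0484). An unnamed gene on the same strand overlaps 389 bases of Birc2. Xiap, which inhibits caspases directly, had a log2 fold change of 0.21 and was not called (edgeR adjusted p = 0.315).

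Traf1, an adaptor that binds both cIAP proteins, was the single gene called among 7 adaptors of death receptors, of which 3 were lower with the 6 libraries. It had 7.96, 6.30 and 6.04 CPM in the controls and 1.94, 2.90 and 2.22 CPM in libraries with the AF-PTK@LEV@SPP1 label, and fell by 1.59 on the log2 scale (SE 0.27, edgeR adjusted p = 0.0484). Leaving out a library with the AF-PTK@LEV@SPP1 label gave edgeR adjusted p-values of 0.0809 to 0.194 for Birc2 and 0.0882 to 0.188 for Traf1. Without AF-PTK@LEV@SPP1 2 or without AF-PTK@LEV@SPP1 3 edgeR called 0 genes in all, so those fits do not decide these calls. The log2 fold change stayed between -0.71 and -0.54 for Birc2 and between -1.77 and -1.41 for Traf1 in all alternatives run. Their calls were lost in 9 and 10 of 16 alternatives, including limma-voom (adjusted p = 0.0556 and 0.0531). Among 7 tested death receptors and ligands 0 were called, and with the 6 libraries 2 were lower and 1 was higher. The higher gene was Tnfsf10, which encodes the ligand TRAIL, with 1.80, 1.22 and 0.916 CPM in the controls and 4.65, 6.52 and 3.53 CPM in the other group (edgeR adjusted p = 0.0838, and 0.0203 with the 6 libraries). Tnfrsf10b, which encodes a receptor for TRAIL, had lower values in that group, with 8.53, 14.7 and 14.96 CPM against 3.88, 4.22 and 3.70 CPM, without overlap. Its log2 fold change was -1.58 (edgeR adjusted p = 0.0517, and 0.0102 with the 6 libraries), and it was called in 8 of 16 alternatives.

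Casp6, an effector caspase, had 17.8, 20.9 and 23.3 CPM in the controls and 11.6, 11.8 and 12.1 CPM in libraries with the AF-PTK@LEV@SPP1 label. The groups did not overlap, with a log2 fold change of -0.76 (SE 0.15, edgeR adjusted p = 0.0616, and 0.0125 with the 6 libraries).

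Bak1, the other main pore former, had 40.0, 31.6 and 33.2 CPM in the controls and 18.7, 21.0 and 23.0 CPM in libraries with the AF-PTK@LEV@SPP1 label. Like Bax, it was lower without overlap and not called, with a log2 fold change of -0.80 (edgeR adjusted p = 0.0579, and 0.0168 with the 6 libraries). It overlaps Ggnbp1 on the opposite strand over 8785 bases. Of 7 tested BH3-only genes, Bcl2l11 alone was called, 2 were lower with the 6 libraries, and 5 had a log2 fold change below 0. Of the 6 genes of the apoptosome and of mitochondrial release and the 2 DNA fragmentation factors, 0 were called by edgeR, also with the 6 libraries.

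Some markers of other cells differed between the groups or between single libraries. Of 6 osteoclast markers 3 were lower by edgeR, and their summed level was 5323, 3367 and 3380 CPM in the controls and 811, 747 and 481 CPM in libraries with the AF-PTK@LEV@SPP1 label. The most abundant, Ctsk, had 4090, 2701 and 2689 CPM against 574, 486 and 286 CPM. Of 6 T cell markers 1, Cd2, was lower, and the sums were 21.0, 17.88 and 18.7 CPM against 8.23, 11.5 and 12.1 CPM. Cd2 was the most abundant in each control, whereas Lck exceeded it in every library with the AF-PTK@LEV@SPP1 label. There Lck had 3.65, 5.31 and 5.64 CPM and Cd2 had 1.82, 1.81 and 2.17 CPM. Lck and Cd5 overlapped between the groups. Of 9 tested markers of macrophages and monocytes 1, Cd68, was lower. Mrc1, Csf1r and Itgam were below the controls without overlap and not called, whereas Cd163, Adgre1, C1qa, C1qb and Lyz2 overlapped between the groups and Cd163 had 54.0, 29.5 and 29.0 CPM against 47.2, 143 and 88.3 CPM. The list had sums of 2887, 1942 and 1919 CPM against 639, 1868 and 1903 CPM, Lyz2 the most abundant and Marco at 0. Lyz2, which makes up most of the sum in the other 5 libraries, had 1833, 1267 and 1247 CPM against 272, 1243 and 1401 CPM, and both it and Bcl2a1 were lowest in AF-PTK@LEV@SPP1 1. The median log2 fold change of the list was -0.88. The part of these cells in the values of Bcl2l11, Bcl2a1, Birc3 and the other genes was not tested.

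In the 10 other marker lists 0 genes were called by edgeR. The gene said to lead a list is its most abundant over the 6 libraries together. In some lists, those of neutrophils, mast cells and proliferation among them, another gene was higher in single libraries. Neutrophil markers, led by S100a9, summed to 1151, 467 and 462 CPM in the controls and to 299, 2951 and 4062 CPM in the other group. Lcn2 of that list had another pattern, with 25.8, 283 and 288 CPM against 10.1, 83.4 and 108 CPM, and was its most abundant gene in Control 2 and 3. Adipocyte markers, led by Fabp4, summed to 410, 66.8 and 70.7 CPM against 1066, 1677 and 732 CPM. B cell markers, led by Cd79a, summed to 47.7, 5.21 and 4.09 CPM against 22.6, 60.9 and 96.3 CPM. In all 3 of these lists Control 1 stood well above the other controls. Erythroid markers, led by Hbb, summed to 326, 355 and 390 CPM against 298, 2958 and 1801 CPM, and muscle markers, led by Acta1, to 521, 664 and 673 CPM against 522, 5270 and 1398 CPM. Proliferation markers, led by Mki67, summed to 240, 155 and 148 CPM against 115, 623 and 417 CPM. These 3 lists were higher in AF-PTK@LEV@SPP1 2 and 3 than in the 4 other libraries. Mast cell markers, led by Kit, summed to 27.0, 21.2 and 21.1 CPM against 20.2, 46.8 and 34.3 CPM, and endothelial markers, led by Pecam1, to 498, 601 and 585 CPM against 375, 438 and 435 CPM. Summed levels of disc tissue markers were high in every library, though single markers were not. Markers of annulus and tendon, led by Col1a1, summed to 53411, 73791 and 74655 CPM against 113914, 80873 and 96316 CPM. Those of chondrocytes and nucleus pulposus, led by Col2a1, summed to 19265, 27006 and 26850 CPM against 39869, 27893 and 41346 CPM. Both sums were higher in every library with the AF-PTK@LEV@SPP1 label than in any control, but this did not hold gene by gene. Col2a1 itself overlapped between the groups, as did other genes of both lists. Scx and Col9a1 had log2 fold changes of -0.41 and -0.83, whereas those of the other tested genes of both lists were above 0. The part of disc tissue in the values of the apoptosis genes was not tested.

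Genes with the pattern most like that of Bcl2l11 were ranked by the root mean square difference of centred log2 CPM over the 5 distinct samples. The nearest 3 were Plekhg6 (0.0428), Rai14 (0.0471) and Nrbf2 (0.0571), where the spread of Bcl2l11 itself was 0.43, and 39 genes lay within 0.1 of it. Plekhg6 overlaps Tnfrsf1a, a gene of the wider list, on the opposite strand.

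Promoter windows of RefSeq on GRCr8, 250 bases before to 50 after a gene start, were found for 6 of the 8 members, and Casp8 and Bax are named only. On either strand, 3 motifs were searched. GGANTTTCC, an NF-κB type motif, occurs in 1.28% of all 33469 windows and was found in that of Mcl1. The motif TGANTCA occurs in 7.33% and was found in that of Bcl2a1. The motif TATAAA occurs in 14.2% and was found in that of Bcl2. The window of Bcl2l11 held none of the 3. The stretch around the match of Mcl1, a gene that was lower without overlap, is shown as the plus strand at chr2:185908044-185908102. The capitals mark the match, which lies on the minus strand, so that they read as the reverse complement of the motif. A match describes letters in the window and no binding was measured.
Mcl1: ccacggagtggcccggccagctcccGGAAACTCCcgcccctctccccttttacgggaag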

How the data were processed

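The authors deposited counts, whole numbers of reads per rat Ensembl gene and library without normalization. The submitters' processing notes name FastQC, Trimmomatic, HISAT2, featureCounts, DESeq2 and the mouse build mm10. The build behind the table's coordinates and the counting rules for strand and shared reads are not given in the sources used here.

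Counts of Control 2 and 3 were summed, and edgeR 4.0.16 (R 4.3.3) was run on the 5 distinct samples: libraries were scaled by trimmed mean of M-values, low genes were removed by filterByExpr (minimum count 10), then came quasi-likelihood testing. A call required a p under 0.05 after Benjamini-Hochberg adjustment over all genes tested, at any fold change. Per-library CPM were normalized over the 6 libraries. The Bax to Bcl2 ratio used a prior count of 2 and a two-sided exact permutation test. The genes named are the 8 members, Spp1, the called genes of the wider apoptosis list, the most abundant gene of each marker list and any at 0, and the genes most like a called member. Casp6, Bak1, Bok, Xiap, Cd68, Mrc1, Csf1r, Itgam, Lcn2, Cd163, Adgre1, C1qa, C1qb, Lck, Cd5, Scx, Col9a1, Tnfsf10, Tnfrsf10b and Ftl1 were named after their values were seen. Untested or unmatched genes of the wider list and genes that overlap a named gene are also given. A few genes are left out of the text and plots. The members and lists were chosen with earlier results of these data known. Alternatives were DESeq2 1.42.0, limma-voom (limma 3.58.1), other normalizations and filters, the 6 libraries, a replicate block and each sample left out.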

Additional observations from a re-analysis of the deposited data

How the results depend on the processing

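With the 6 libraries kept separate, 1233 genes were called higher and 1494 lower, with 1 member higher and 4 lower and 2 genes of the wider list higher and 15 lower. DESeq2 gave 1132 and 1440 genes, 1 and 4 members and 2 and 15 genes of the wider list. Called lower were 2 members with RLE normalization, without a filter and at a minimum count of 30. Those fits called 443, 510 and 431 genes lower among 15537, 22112 and 13751 tested. Of the wider list, 2 genes were lower with limma-voom and 8 without a filter. With limma-voom, 315 of all 15537 genes tested were lower. Where a library, or the control pair, was left out, edgeR called 0 to 170 genes higher and 0 to 396 lower, 0 to 1 members lower and 0 to 4 genes of the wider list lower. Without AF-PTK@LEV@SPP1 2 or without AF-PTK@LEV@SPP1 3 it called 0 genes in all, with 3109 and 2699 at an unadjusted p under 0.05. Fewer samples remain in those fits, and causes beyond that were not tested.

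With the replicate block on the 6 libraries, 307 genes were higher and 434 lower, and 1 member, Bcl2l11, was lower (edgeR adjusted p = 0.0367). Deviations of libraries with the same number correlated at -0.323, -0.274 and -0.0794, so the numbers do not pair the samples.

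The log2 fold change of Casp9 turned to 0.0043 with the 6 libraries and 0.0189 with the replicate block, and ran from -0.127 to 0.117 with a single library left out, positive without Control 1 or Control 3. That of Bok ran from -0.415 to 0.067, positive without Control 1, and that of Spp1 turned to -0.0657 without the control pair. The 7 other members kept their direction in all 16 alternatives. The Bax to Bcl2 difference stayed between -1.64 and -0.99 in 8 alternatives. With 2 distinct controls, a p that misses the threshold does not show that levels were equal.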

Other observations

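In some genes of the wider list the libraries of a group differed widely, and 2 of them are described here. Pmaip1, which encodes the BH3-only protein Noxa, had 61.5 CPM in AF-PTK@LEV@SPP1 1 and 17.4 to 26.7 CPM in the other 5 libraries. The gene named Cycs, the symbol of cytochrome c, had 227, 4 and 1 counts in Control 1, 2 and 3 against 48, 99 and 50 counts in AF-PTK@LEV@SPP1 1, 2 and 3. It spans only bases 60282810 to 60284019 of chromosome 18 in the table's coordinates. Whether these counts capture the cytochrome c transcript was not tested, so they are not read as its level. These genes were singled out after their values were seen. Casp2, Bcl2l10 and Faslg had at most 4, 4 and 10 counts in any library and were not tested, and Hrk was not matched by name. The whole annotated span of Casp2, 17711 bases, lies within Tmem139 on the same strand, and how shared reads were counted is not given in the sources used here.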
